A study of Mus musculus with 8 samples.

Results

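The genes described are 6 members of the S100 family of small calcium-binding proteins, S100a8, S100a9, S100a4, S100a6, S100a10 and S100a11, taken by name from the 24405 genes of the count tables. They were followed through the cell classes of mouse heart, liver and kidney allografts and of the recipients' blood. The 8 libraries, 1 for each condition, were blood mononuclear cells (PBMC) and graft-infiltrating lymphocytes isolated by density gradient (TIL) for each of the 3 organs, and collagenase-dissociated parenchymal cells (PC) for liver and kidney, all read by Microwell-seq on day 7. The labels give male BALB/c mice of 8 weeks, whereas the methods describe BALB/c organs placed in C57BL/6 recipients that received no immunosuppressive drug. The methods name 2 recipients per organ, so libraries of an organ may share a mouse, and p-values that count libraries as independent may then be too small. No test between organs was run, since each condition is 1 library, and levels carry exact 95% Poisson intervals, which cover counting error only.

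S100 proteins bind calcium through a pair of EF-hand motifs and act mostly as dimers that change partner when calcium rises. S100a8 and S100a9 pair as calprotectin, an abundant neutrophil cytosolic protein that sequesters zinc and manganese and, once released, signals through Tlr4. S100a4 binds non-muscle myosin and is known from motile and memory-type cells, S100a6 binds Cacybp (calcyclin-binding protein), S100a10 is the partner of annexin A2 and is unusual in the family because its calcium loops are inactive, and S100a11 binds annexin A1.

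All 6 genes lie on chromosome 3 (GRCm38.p6, RefSeq): S100a4 at chr3:90603770-90606045, S100a6 at chr3:90612894-90614414, S100a8 at chr3:90669071-90670034 and S100a9 at chr3:90692630-90695721, the last on the minus strand, then S100a11 at chr3:93520496-93526288 and S100a10 at chr3:93555117-93564645. To set the calprotectin pair, S100a8 and S100a9, beside the other members, the 150 bases before each RefSeq start are shown for comparison, 5′ to 3′ on the strand of the gene. Capitals mark matches to TATAAA, the TATA box, TGANTCA, the AP-1 motif, TTGCNNAA, a C/EBP motif, or GAGGAAGT, a PU.1 motif, searched on both strands, with no overlap between matches. The promoter of S100a10 is named only.
S100a8, chr3:90668921-90669070, plus strand: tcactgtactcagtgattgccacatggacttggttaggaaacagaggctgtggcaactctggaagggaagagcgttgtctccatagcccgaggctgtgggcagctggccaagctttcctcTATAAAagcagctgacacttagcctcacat
S100a9, chr3:90695722-90695871, minus strand: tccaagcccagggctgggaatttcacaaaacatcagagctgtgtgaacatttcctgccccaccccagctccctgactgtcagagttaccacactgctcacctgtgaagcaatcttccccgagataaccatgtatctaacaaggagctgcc
S100a4, chr3:90603620-90603769, plus strand: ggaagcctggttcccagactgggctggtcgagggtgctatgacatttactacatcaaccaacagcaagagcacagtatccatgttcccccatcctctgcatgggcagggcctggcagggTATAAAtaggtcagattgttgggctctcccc
S100a6, chr3:90612744-90612893, plus strand: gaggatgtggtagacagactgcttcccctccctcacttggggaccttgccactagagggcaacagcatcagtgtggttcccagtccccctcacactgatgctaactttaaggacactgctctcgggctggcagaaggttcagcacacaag
S100a11, chr3:93520346-93520495, plus strand: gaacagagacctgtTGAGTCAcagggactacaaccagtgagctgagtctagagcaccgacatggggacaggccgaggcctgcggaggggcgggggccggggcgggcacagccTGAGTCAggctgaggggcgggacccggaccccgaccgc
TATAAA began 30 bases before the start in S100a8 and 31 bases before it in S100a4, and 7.57% of 32851 RefSeq windows of this length hold it. S100a11 held TGAGTCA 136 and 38 bases before its start, and 4.24% of windows hold the AP-1 motif. The windows of S100a9 and S100a6 held none of the 4 motifs, of which the C/EBP motif is in 5.46% and the PU.1 motif in 1.63% of windows. These matches are letters only and were not tested for binding.

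The tables hold 10000 barcodes each and 62080306 UMIs in all, and 47541 cells reached 500 UMIs with mitochondrial UMIs no higher than 10%, with median UMIs between 581 and 1502 per library. Cells were sorted by UMIs of gate genes into neutrophils (Csf3r), monocytes or macrophages (Csf1r), T cells (Cd3d, Cd3e, Cd3g and Trac), B cells and stromal cells (Col1a1, Col1a2, Col3a1 and Dcn). Of the cells, 26693 met exactly 1 gate, while 6902 that met more than 1 and 13946 that met none were left out. A class was used in a library where it held at least 20 cells, which gave neutrophils in 6 libraries, monocytes or macrophages and T cells in 8, B cells in 3 and stromal cells in 1. Pairs of libraries shared 123 to 617 barcodes. The libraries labelled heart TIL and liver TIL went against their organ: the first held 1056 UMIs of hepatocyte Alb and 2 of cardiac Myl7, the second 0 and 128. They are called by their labels, and comparisons that rest mostly on them are given without them too, except for stromal cells, which reached 20 only in the labelled liver TIL.

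S100a8 and S100a9 were the most abundant members in neutrophils of all 6 libraries that held them. In blood neutrophils S100a8 stood at 110776, 72351 and 67725 CPM (the UMIs of a gene scaled to a common total of UMIs in every class and library) in heart, liver and kidney PBMC, and S100a9 at 65495, 56468 and 69485 CPM. Together they made up 17.6%, 12.9% and 13.7% of all UMIs of those neutrophils. In graft neutrophils of the labelled heart TIL, the labelled liver TIL and liver PC, S100a8 was 14724, 10243 and 26162 CPM, and S100a9 was 6565, 6117 and 20933 CPM. Every blood library was above every graft library for both genes. In these graft neutrophils 8 neutrophil markers summed to 4999, 2503 and 10100 CPM, below the 28096, 20077 and 22802 CPM of 10 monocyte or macrophage markers, of which Csf1r is at 0 by the gate. In heart, liver and kidney PBMC the neutrophil markers summed to 45196, 15435 and 18861 CPM and the monocyte or macrophage markers to 17140, 26527 and 9965 CPM. The part of this in the lower graft level was not tested. Per cell, the median share of both genes was 17.9%, 12.9% and 14.3% of UMIs in blood neutrophils, and 0.882%, 0.679% and 3.53% in graft ones, where single cells reached 26.6%, 15.5% and 32.2%. Graft gates thus held single cells at the level of blood neutrophils beside a median far below it. Such cells were not particular to this gate. Single T cells of the same libraries reached 23.5%, 14.0% and 25.1%, with medians of 0.403%, 0.384% and 0.372%. A UMI of the neutrophil gene Retnlg was seen in 42.8%, 26.3% and 61.4% of the graft neutrophils. It was also seen in 29.5%, 16.7% and 41.4% of the T cells of those libraries. In blood neutrophils of heart, liver and kidney PBMC the share was 100%, 97.7% and 88.9%. In heart PBMC, neutrophils with the granule genes Ngp, Camp or Ltf, which mark younger cells, had S100a8 at 115561 CPM against 110009 CPM in those without, and S100a4 at 154 against 239 CPM, with no replicate check in these gates. As log2(CPM + 10) the difference was 0.07 for S100a8 and 0.08 for S100a9. With cells of more than 1 gate kept, which gave 3 libraries, the means were 0.83 and 0.89. UMIs count molecules, so the 2 genes can be set against each other: S100a8 exceeded S100a9 1.69-fold (95% interval 1.68 to 1.70) in heart PBMC neutrophils and 1.28-fold in those of liver PBMC, while in kidney PBMC the ratio was 0.975 (0.937 to 1.01).

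**Figure D1:**
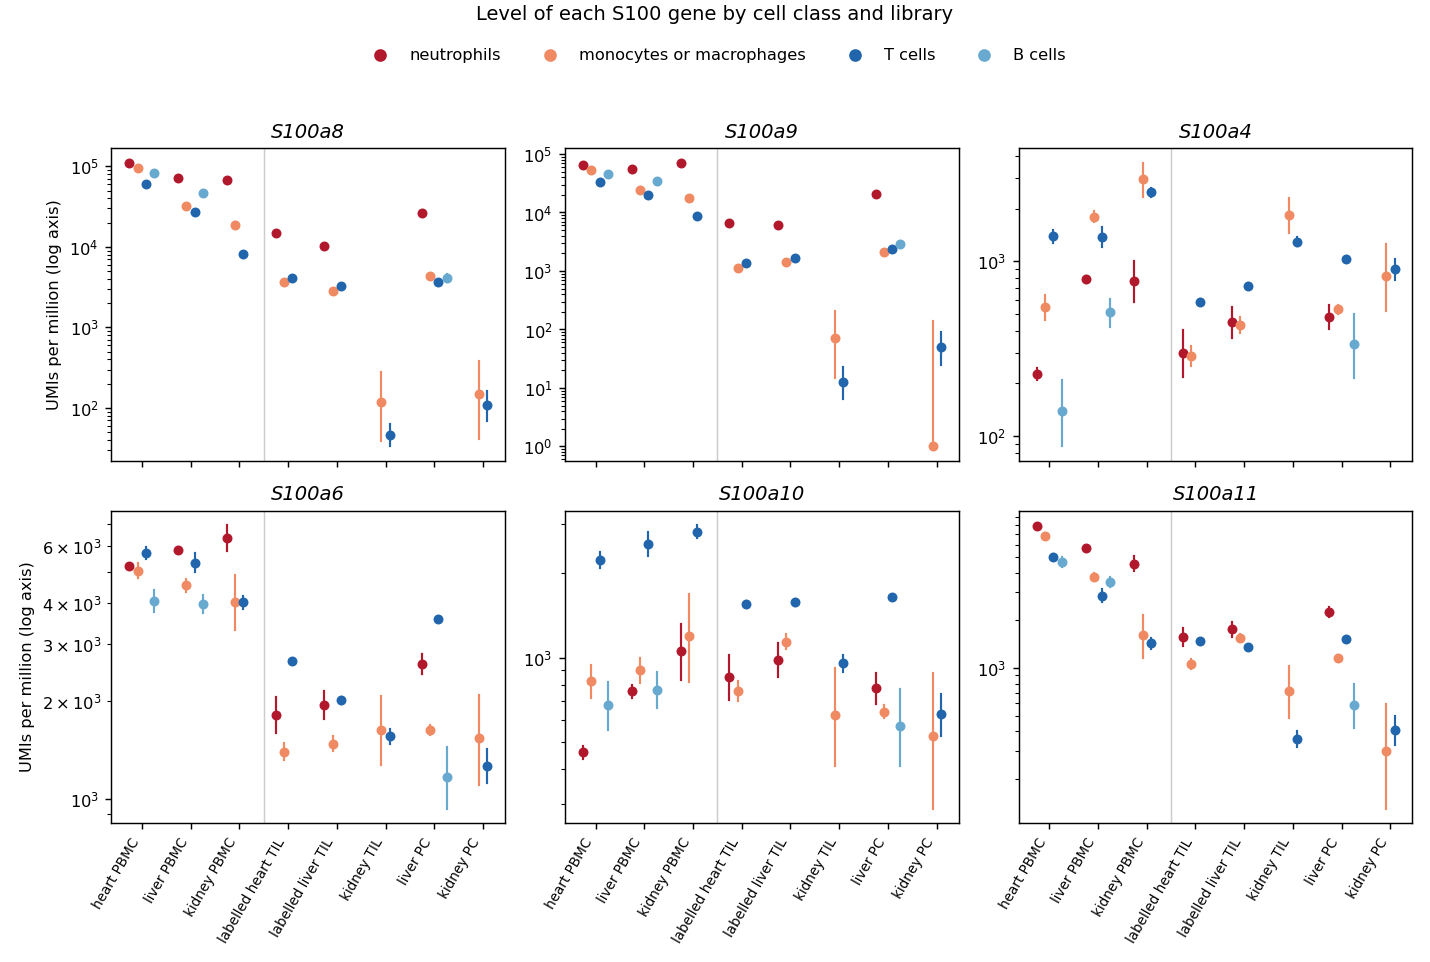
CPM of each member (log axes, a level of 0 drawn at 1) by library, for classes of at least 20 cells, with exact 95% Poisson intervals as vertical lines and a grey line between PBMC and graft libraries. S100a8 and S100a9 are 110776 and 65495 in heart PBMC neutrophils. In T cells they fall from 60694 and 32616 in heart PBMC to 46.7 and 12.8 in kidney TIL, whereas S100a4, S100a6 and S100a10 stay within 1 order of magnitude.

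Lymphocytes should lack S100a8 and S100a9, so their levels there were taken as a gauge of neutrophil RNA. Whether this was free RNA, doublets or misgated neutrophils was not tested. In heart PBMC 43.7% of T cells and 69.3% of B cells had over 10% of UMIs from both genes, against 97.1% of neutrophils. In labelled heart TIL it was 0.182% of T cells and 4.14% of neutrophils. T cells of heart PBMC carried S100a8 at 60694 CPM, which is 54.8% of the neutrophil level of the same library. S100a9 stood at 49.8% and Retnlg, a neutrophil-restricted resistin-like gene that is not an S100 member, at 56.6%. The 3 percentages in T cells of the other libraries with neutrophils were 36.9%, 35.2% and 37.5% in liver PBMC, 12.0%, 12.5% and 13.1% in kidney PBMC, 28.0%, 20.9% and 27.1% in labelled heart TIL, 31.8%, 27.7% and 27.7% in labelled liver TIL, and 14.0%, 11.2% and 10.8% in liver PC. Relative to Retnlg, the median over the 6 libraries was 1.01 for S100a8 and 0.946 for S100a9. In T cells S100a8 stood at 0.915 to 1.30 times the percentage of Retnlg and S100a9 at 0.771 to 1.04 times. Other neutrophil genes gave other percentages: Cxcr2, a neutrophil chemokine receptor, was below S100a8 in T cells of all 6 libraries, at 40.9%, 29.1% and 5.39% in heart, liver and kidney PBMC, 11.4% and 13.4% in labelled heart and liver TIL and 8.41% in liver PC. Ngp, a granule gene, was at 7.78% in liver PBMC, from 1 UMI in T cells, and 4.35% in kidney PBMC, but at 72.0% in labelled liver TIL, from 2 UMIs in neutrophils. Lcn2, a neutrophil iron-carrier binding protein, was above S100a8 in labelled heart and liver TIL, at 33.2% and 36.3%. Camp, a granule gene, was at 55.9% in heart PBMC, close to S100a8, and at 44.7% in liver PBMC. Counting error of these percentages was not weighed. Values scaled by Retnlg, the most abundant of these genes, would therefore differ with another gene, which was not run. They depend on the neutrophil gate too. With a gate that also asked 2 UMIs of Retnlg, Cxcr2 or Mmp9, neutrophils of labelled liver TIL had S100a8 at 31970 and Retnlg at 4439 CPM. With Csf3r alone these were 10243 and 814 CPM. That gate picks cells by Retnlg itself, and T cell percentages of its levels were not computed. In B cells the percentages were 74.6%, 68.9% and 76.2% in heart PBMC and 63.7%, 61.6% and 67.4% in liver PBMC. In liver PC, with 42 B cells, they were 15.9%, 13.8% and 23.3%. Barcodes under 500 UMIs in the 3 PBMC libraries reached 80.0% to 111% of the neutrophil level of S100a8.

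The lymphocytes of kidney grafts carried little of either gene. Kidney TIL, with 4 neutrophils, had 40 S100a8 and 11 S100a9 UMIs in 1091 T cells (46.7 and 12.8 CPM), and 96.8% of those cells had neither. Kidney PC, with 1 neutrophil, had 24 and 11 UMIs in 351 T cells. The 42 monocytes or macrophages of kidney PC had 4 UMIs of S100a8 and 0 of S100a9, which allows up to 113 CPM. With each cell thinned to 500 UMIs, a UMI of S100a8 was seen in 100% of heart PBMC T cells and in 1.83% of kidney TIL T cells, against 100% and 2.57% unthinned, at median depths of 860 and 698 UMIs.

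S100a4 and S100a10 went the other way, with levels in T cells above the neutrophil level of the same library. S100a4 in T cells was 617%, 175% and 322% of the neutrophil level in heart, liver and kidney PBMC and 162% to 215% in graft libraries. S100a10 was 487%, 336% and 267% in blood and 161% to 212% in grafts. S100a6 stood at 63.4% to 146% and S100a11 at 31.4% to 94.6%, between the calprotectin genes and S100a4. Thinned to 500 UMIs, 38.3% of heart PBMC T cells had a UMI of S100a4 against 9.17% of neutrophils and 7.54% of B cells, and the T cell share was above the neutrophil share in each of the 6 libraries. If each library's neutrophil level is scaled by Retnlg, a subtraction chosen after seeing the data, the carried amount would be 4.07% to 21.4% of the S100a4 of T cells, 4.91% to 17.3% of their S100a10, 7.81% to 51.6% of their S100a6 and 16.0% to 88.6% of their S100a11.

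**Figure D2:**
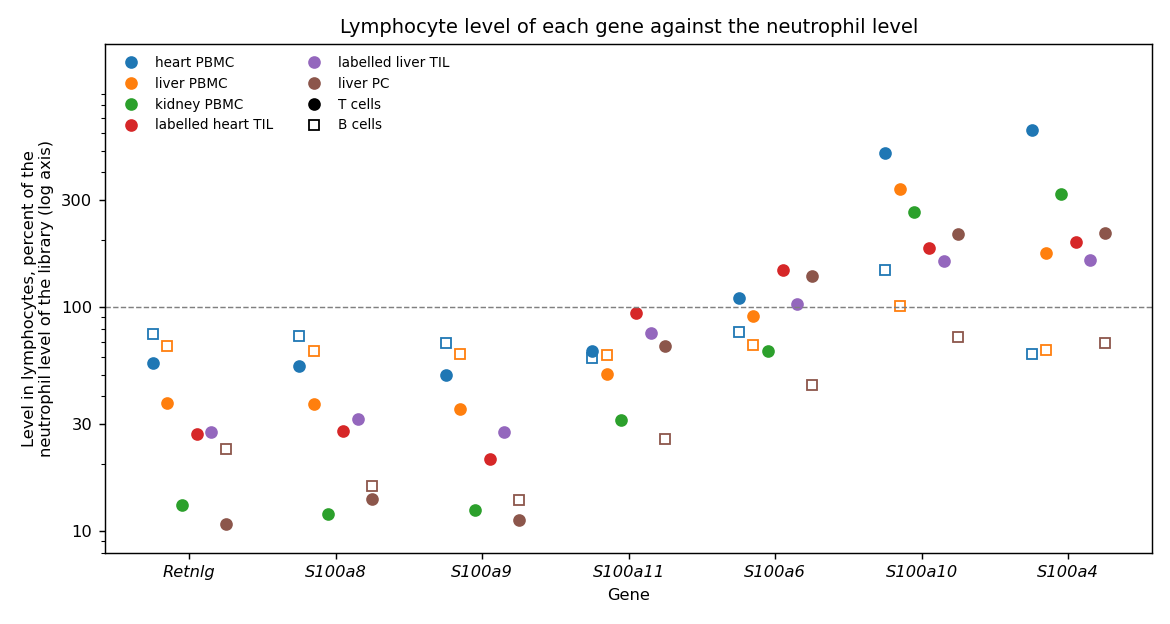
Level of Retnlg and of the 6 members in T cells (filled) and B cells (open) as a percentage of the neutrophil level of the same library (log axis), with 100% dashed. Retnlg, S100a8 and S100a9 lie between 10.8% and 76.2%, while S100a10 and S100a4 lie above 100% in the T cells of all 6 libraries.

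Within libraries, neutrophils exceeded T cells in S100a8, S100a9 and S100a11 and fell below them in S100a4 and S100a10, in 6 of 6 libraries each. On the log2(CPM + 10) scale the mean difference was 1.95 ± 0.84 (SD, n = 6) for S100a8, 2.13 ± 0.84 for S100a9 and 0.72 ± 0.55 for S100a11. S100a4 differed by -1.29 ± 0.72 and S100a10 by -1.34 ± 0.59. Each of the 5 had an exact sign-flip permutation p = 0.031 (two-sided), the smallest that 6 libraries allow. Of 5495 genes tested, 12.9% were higher and 29.6% lower in every library, so agreement across libraries alone is common for lower genes. S100a6 was higher in 2 and lower in 4 libraries, with a mean of -0.07 ± 0.44 and an exact permutation p = 0.81. The quasi-likelihood test of edgeR, adjusted over 6142 genes, called the same 5 genes, with adjusted p from 2.34e-10 for S100a9 to 4.97e-05 for S100a4, where it called 23.3% of genes higher and 18.4% lower. With no UMI minimum, which gave 8 libraries, S100a8 (mean 1.07), S100a9 (1.45) and S100a11 (0.44) no longer had a single direction, nor did S100a11 without barcodes shared between libraries (0.70).

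Against monocytes or macrophages, neutrophils were higher in 4 members in 6 of 6 libraries, where 5.95% of 5125 genes were higher and 9.58% lower. The mean differences were 1.61 ± 0.82 for S100a8, 1.91 ± 1.03 for S100a9, 0.42 ± 0.23 for S100a6 and 0.67 ± 0.50 for S100a11 (exact permutation p = 0.031 each, n = 6). S100a4 was higher in monocytes or macrophages of all 3 PBMC libraries, at 547 against 225 CPM in heart, 1809 against 788 in liver and 2959 against 772 in kidney, and near the neutrophil level in grafts. Its mean difference was -0.73 ± 0.83 (exact permutation p = 0.125), and -1.13 with both TIL libraries of heart and liver left out. It was then lower in 4 of 4, but the share of all genes was not computed for these 4, so this is no support. S100a10 differed by -0.17 ± 0.39, within the spread between libraries (exact permutation p = 0.375). With no UMI minimum none of the 4 kept a single direction over 8 libraries, with means of 0.60, 1.23, 0.31 and 0.26 in the order above, and S100a6 lost it also with stricter gates (0.49) and with cells of more than 1 gate kept (0.18). In edgeR the 4 passed again, with S100a4 lower (adjusted p = 0.0312), where 7.63% of genes were called higher and 3.04% lower. The Csf1r gate of heart PBMC still carried 36458 CPM of the 8 neutrophil markers, against 45196 CPM in the neutrophils themselves, beside its S100a8 of 95502 CPM, and their part in it was not tested.

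In liver PC the monocyte or macrophage class held S100a8 at 16.6% of the neutrophil level, S100a9 at 10.1% and Retnlg at 9.08%. Its S100a8 to S100a9 ratio was 2.05 (95% interval 1.97 to 2.12), against 1.25 (1.21 to 1.29) in neutrophils of that library. The same ratio was 3.29 against 2.24 in labelled heart TIL and 2.01 against 1.67 in labelled liver TIL. In blood it was 1.82 against 1.69, 1.37 against 1.28 and 1.04 against 0.975 for heart, liver and kidney. The ratio was thus above that of neutrophils in 6 of 6 libraries, with overlapping intervals in kidney PBMC. T cells had a higher ratio than neutrophils too in 5 of 6, at 1.86 in heart PBMC, 1.35 in liver PBMC, 3.01 in labelled heart TIL, 1.93 in labelled liver TIL and 1.55 in liver PC, so a higher ratio was not particular to monocytes or macrophages.

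Among monocytes or macrophages, cells with C1q genes, a complement component of tissue macrophages, had less RNA of 4 members than cells with Ly6c2 or Chil3, genes of inflammatory monocytes. The 3 libraries with 20 or more cells of each were the labelled heart TIL, the labelled liver TIL and liver PC. S100a4 was 134, 361 and 151 CPM in C1q cells against 529, 998 and 938 CPM in Ly6c2 or Chil3 cells, without overlap. S100a6, S100a10 and S100a11 were also lower in 3 of 3 libraries, by -1.23 ± 1.03, -0.58 ± 0.50 and -1.17 ± 0.69 on the log2 scale, and S100a4 by -1.97 ± 0.56. With no UMI minimum, which gave 5 libraries, S100a6 (mean -0.94) and S100a10 (-0.41) no longer had a single direction. The smallest exact permutation p for 3 libraries is 0.25, and 12.7% of 5838 genes were lower in all 3 and 18.1% higher. In edgeR S100a4 (adjusted p = 0.000158), S100a6 (0.00678) and S100a11 (0.00356) passed over 1828 genes, S100a10 did not (0.141), and S100a8 did (0.0317), where 3.23% of genes were called lower and 2.68% higher. With both TIL libraries left out, liver PC alone gave -2.56 for S100a4, -2.32 for S100a6, -1.12 for S100a10 and -1.90 for S100a11. S100a8 differed in sign, at 9555 CPM in Ly6c2 or Chil3 cells against 922 CPM in C1q cells of liver PC, but 1830 against 2652 CPM in the labelled liver TIL.

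**Figure D3:**
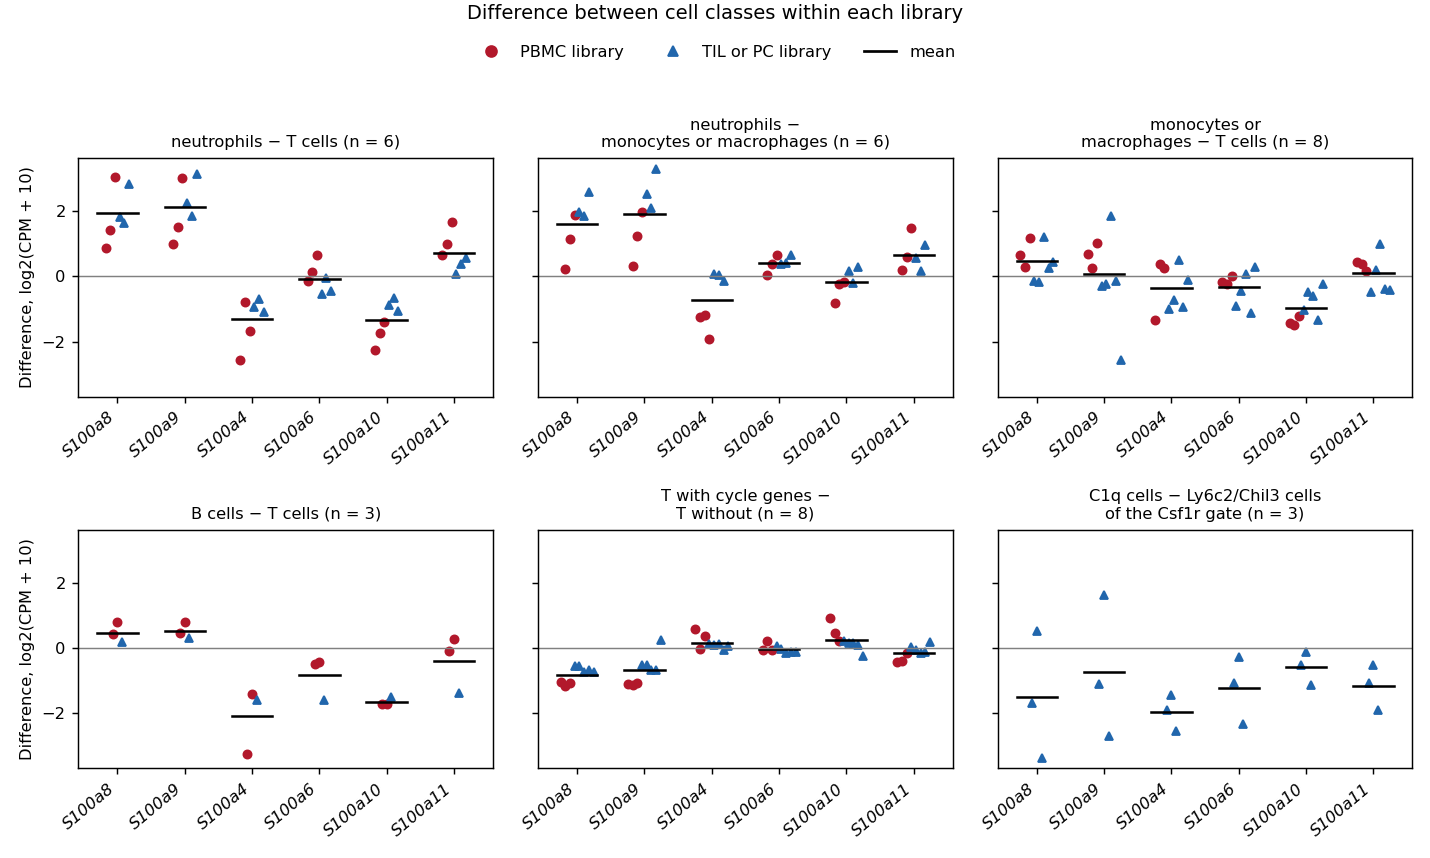
Difference of log2(CPM + 10) between pairs of cell classes within each library, with a point for each library (circles PBMC, triangles TIL or PC) and the mean as a bar. In neutrophils minus T cells, S100a8, S100a9 and S100a11 lie above 0 and S100a4 and S100a10 below 0 in all 6 libraries, and in B cells minus T cells S100a4, S100a6 and S100a10 lie below 0 in all 3.

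Monocytes or macrophages had less S100a10 than T cells in 8 of 8 libraries, the only member with a single direction. The mean difference was -0.98 ± 0.48 (SD, n = 8, exact permutation p = 0.0078), where 13.8% of 5576 genes were lower in all 8 libraries and 5.83% higher. S100a8 was higher in 6 of 8 by 0.46 ± 0.53 (exact permutation p = 0.047). Without both TIL libraries of heart and liver it was higher in 6 of 6, a set for which the share of all genes was not computed. In edgeR S100a10 (adjusted p = 2.21e-07), S100a4 (0.0248) and S100a6 (0.0392) were lower and S100a8 was higher (0.0361), where 20.4% of genes were called lower and 19.6% higher. Keeping cells that met more than 1 gate ended the call for S100a10, with a mean of -0.63.

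T cells with a UMI of the cycle genes Mki67, Top2a or Birc5 had less S100a8 than the other T cells in 8 of 8 libraries. The mean difference was -0.81 ± 0.24 (exact permutation p = 0.0078), where 3.18% of 5412 genes were lower in all 8 and 5.86% higher. In heart PBMC S100a8 was 33707 against 70116 CPM, with median UMIs of 1214 against 834 per cell. S100a10 was higher in 7 of 8 by 0.24 ± 0.33 (exact permutation p = 0.070), S100a4 in 6 of 8 by 0.15 ± 0.22 (exact permutation p = 0.055) and S100a6 differed by -0.03 ± 0.13 (exact permutation p = 0.50). Subtraction of the Retnlg-scaled neutrophil level ended the call of S100a8, with a mean of -0.31. In edgeR S100a8 (adjusted p = 5.55e-08), S100a9 (1.22e-07) and S100a11 (0.0154) were lower, where 13.3% of genes were called lower and 8.21% higher.

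B cells had little S100a4 and S100a10. S100a4 was 139, 510 and 334 CPM in B cells of heart PBMC, liver PBMC and liver PC against 1389, 1381 and 1034 CPM in T cells, and S100a10 was 675, 769 and 571 against 2239, 2545 and 1643 CPM. S100a4 differed by -2.08 with a range from -3.23 to -1.42, S100a10 by -1.65 ± 0.12 and S100a6 by -0.84 ± 0.66, lower in 3 of 3 libraries (29% of 5605 genes were), with an exact permutation p = 0.25, the smallest for 3. In edgeR the adjusted p was 0.000612 for S100a4, 8.51e-05 for S100a10 and 0.102 for S100a6, and S100a8 (0.0135) and S100a9 (0.00833) were called higher, where 4.08% of genes were called lower and 5.93% higher. In blood B cells the Retnlg-scaled neutrophil level alone amounted to 124% and 104% of the S100a4 measured and to 97.9% and 98.9% of the S100a6. On the scale of Cxcr2 less would be carried, since B cells held 49.7% and 48.0% of its neutrophil level against 61.6% and 64.7% for S100a4 and 77.8% and 68.2% for S100a6. S100a8 and S100a9 were higher in B than in T cells in 3 of 3 (14.2% of genes were). With cells of more than 1 gate kept, which gave 5 libraries, the means turned to -0.25 and -0.16. After that subtraction both were set to 0 in B and T cells of heart and liver PBMC, so no direction is left there. The 129 stromal cells, all in the library labelled liver TIL, held S100a6 at 2530 and S100a11 at 1943 CPM, against 2014 and 1351 in its T cells, with no replicate check in these gates, and S100a4 at 587 against 725 CPM. On the log2 scale stromal minus T cells was 0.33 for S100a6 and -0.30 for S100a4. With cells of more than 1 gate kept, which gave 3 libraries, the means were -0.02 and -0.85. Erythroid markers summed to 35722 CPM in these stromal cells and to 47536 CPM in the T cells of that library.

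Blood and graft libraries were compared within gated cells. The methods describe collagenase digestion for graft tissue and not for blood. Preparation therefore cannot be told apart from blood against graft in these comparisons. In neutrophils S100a8, S100a9, S100a6 and S100a11 were higher in all 3 PBMC libraries than in all 3 graft libraries, where 9.34% of 5319 genes were and 27.5% were lower, by 2.37, 2.75, 1.46 and 1.67 on the log2 scale (exact permutation p = 0.1, the smallest for 3 against 3). In edgeR the 4 had adjusted p of 0.00724, 0.00794, 0.0102 and 0.0103, where 9.61% of genes were called higher and 6.93% lower. With both TIL libraries left out, liver PC was the only graft library, and the differences of the 4 were 1.64, 1.60, 1.15 and 1.38. S100a6 was 5211, 5847 and 6350 CPM in heart, liver and kidney PBMC against 1816, 1953 and 2597 in labelled heart TIL, labelled liver TIL and liver PC. With a gate that also asked 2 UMIs of Retnlg, Cxcr2 or Mmp9, chosen after seeing the data, graft neutrophils numbered 34, 40 and 118 and carried S100a8 at 35545, 31970 and 46599 CPM, against 75355 to 110776 in blood, still without overlap.

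Monocytes or macrophages of blood exceeded those of grafts in the same 4 members without overlap (exact permutation p = 0.036, the smallest for 3 against 5), where 6.84% of 5728 genes did and 11.9% were lower. In edgeR the 4 passed as well, with adjusted p from 0.0025 to 0.0146, where 6.55% of genes were called higher and 4.52% lower. S100a6 was 5036, 4537 and 4045 CPM in blood and 1399 to 1636 CPM in the 5 graft libraries. S100a11 was separate by only 0.051 on the log2 scale. It stood at 1610 CPM in the 30 cells of kidney PBMC, against 1554 CPM in labelled liver TIL. Whether counting error spans this gap was not tested. After subtraction of the Retnlg-scaled neutrophil level none of the 4 remained separate. S100a6 was then 776, 1916 and 2382 CPM in heart, liver and kidney PBMC, and S100a8 was 4942, 123 and 734 CPM, against 79.7 to 1966 CPM in grafts. S100a9 was set to 0 in all 3 PBMC libraries, so its direction is not measured after subtraction.

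In T cells 5 members, S100a8, S100a9, S100a4, S100a6 and S100a10, were higher in blood without overlap (exact permutation p = 0.036). Of 5568 genes, 5.08% were higher in this way and 10.8% were lower. Of the 5, S100a8 and S100a9 were taken above as a gauge of neutrophil RNA in lymphocytes. Subtraction of the Retnlg-scaled neutrophil level set both to 0 in heart, liver and kidney PBMC. S100a10 was 2239, 2545 and 2817 CPM in heart, liver and kidney PBMC against 1560, 1579, 956, 1643 and 627 CPM in labelled heart TIL, labelled liver TIL, kidney TIL, liver PC and kidney PC. S100a4 was 1389, 1381 and 2484 CPM against 587, 725, 1294, 1034 and 901 CPM. After the subtraction S100a10 stayed separate, with a lowest blood level of 1979 and a highest graft level of 1559 CPM, while S100a4 (1085 in liver PBMC against 1294 in kidney TIL) and S100a6 (2763 in heart PBMC against 3300 in liver PC) overlapped. Kidney TIL and kidney PC held too few neutrophils for the subtraction and entered as measured. What the subtraction left was not rescaled to a common total. Retnlg in T cells stood at 56.6%, 37.5% and 13.1% of the neutrophil level in heart, liver and kidney PBMC. It was 27.1%, 27.7% and 10.8% in labelled heart TIL, labelled liver TIL and liver PC. Whether S100a4 and S100a6 overlap after rescaling was not tested. Among graft libraries with a subtraction the highest S100a4 was 982 CPM, in liver PC. S100a4 also overlapped with cells of more than 1 gate kept and as a mean over single cells, with differences of 0.82 and 0.84. In edgeR none of the 6 members passed, with adjusted p from 0.104 to 0.154 and 6 at an unadjusted p under 0.05, where 0.465% of genes were called higher and 0.449% lower.

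**Figure D4:**
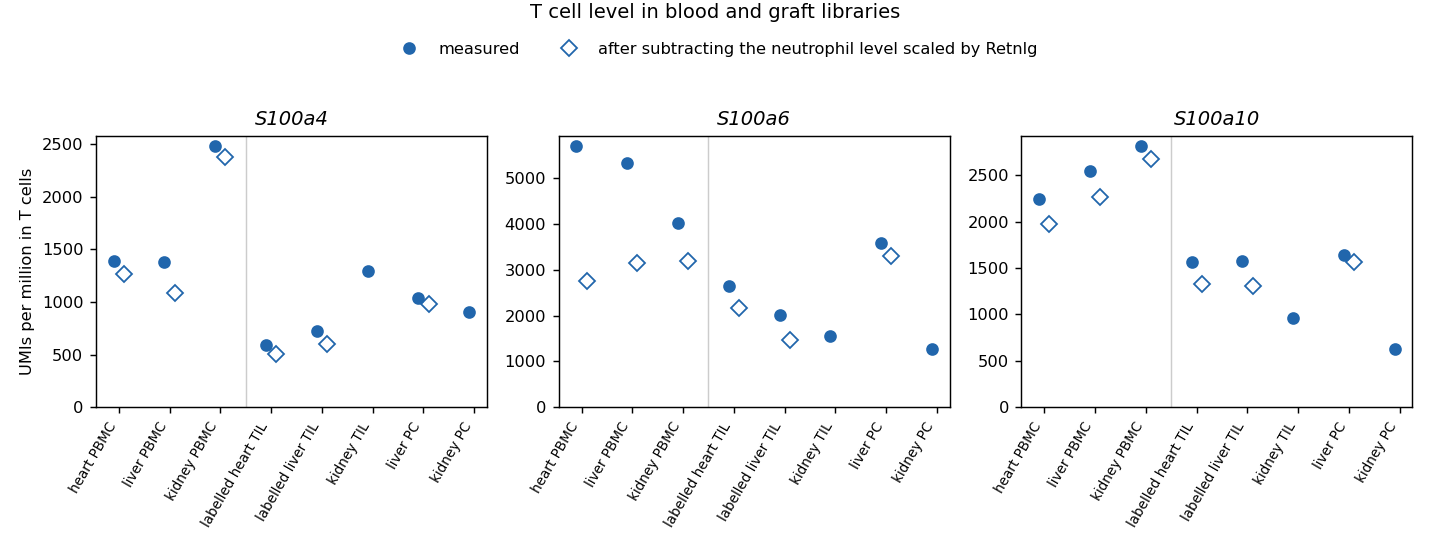
CPM of S100a4, S100a6 and S100a10 in T cells of the 8 libraries, as measured (filled) and after subtraction of the neutrophil level scaled by Retnlg (open, where the library had at least 20 neutrophils), with a grey line between PBMC and graft. Levels after subtraction are not rescaled to a common total. On these levels only S100a10 of the 3 genes keeps every blood library above every graft library, from 1979 upward against 1559 at most.

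Of 9 receptors and 8 intracellular partners of S100 proteins, those with a mean of at least 20 CPM in either class were counted beside the members. A gene could thus enter through the class where it was higher, also among all genes. The part of this rule in the calls was not tested. In neutrophils minus T cells, Tlr4, the receptor of extracellular S100a8 and S100a9, was higher in 6 of 6 libraries by 0.95 ± 0.36, as was Cd33, a sialic-acid-binding receptor for S100a9, by 1.95 ± 0.59 (exact permutation p = 0.031 each), so 2 of 5 receptors tested were higher, where 12.9% of all genes were. Anxa1, the annexin partner of S100a11, was higher too, by 1.97 ± 0.74, and Anxa2, the annexin partner of S100a10, differed by 0.06 ± 0.29 (exact permutation p = 0.59). Anxa6, Cacybp and Sugt1 were lower in 6 of 6, by -1.35 ± 0.48, -0.71 ± 0.40 and -0.72 ± 0.23. Of the receptors Bsg was lower in 6 of 6, by -0.37 ± 0.33. The 1 of 5 receptors and 3 of 7 intracellular partners that were lower stand beside 29.6% of all genes. In edgeR Tlr4 (adjusted p = 0.000233), Cd33 (2.2e-09), Anxa1 (1.06e-09), Anxa6 (4.23e-06) and Sugt1 (0.0441) passed in the same direction, while Cacybp (0.0507) and Bsg (0.852) did not, where 23.3% of genes were called higher and 18.4% lower. Free RNA of these genes was not separated.

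The members held 99.0% of the 2331032 UMIs of the 17 S100 family genes. The next were S100a13 with 18463 UMIs in 8 libraries and S100a1 with 3338, and the other 9 had 230 or fewer. The members were compared with 4960 genes over 26 sums of a class in a library. No test was made, since the sums share libraries and may share neutrophil RNA. The genes most like S100a8 by Pearson r were Slpi (0.98), S100a9 (0.98) and Retnlg (0.98). For S100a9 they were S100a8 (0.98), Retnlg (0.97) and Slfn4 (0.96). For S100a4 they were Crip1 (0.83), Tagln2 (0.83) and Taok3 (0.80), for S100a6 Selplg (0.93), Chp1 (0.91) and Lsp1 (0.91), for S100a10 Sh2d1a (0.82), Klrd1 (0.82) and Epsti1 (0.81), and for S100a11 Hdc (0.94), Gm5483 (0.94) and Ifitm1 (0.94). S100a4 and S100a8 had r = -0.26.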

How the data were processed

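The authors deposited 8 tables of raw UMI counts per gene and barcode, made from Microwell-seq reads with the Drop-seq core tools and STAR on GRCm38 with GENCODE genes (versions stated in the methods are not repeated here). Multi-aligned reads were removed, which could lower S100a11, since a near copy (S100a11-ps) exists. From these, barcodes that reached 500 UMIs, with mitochondrial UMIs up to 10%, were gated by UMIs of marker genes, and cells of a class were summed to CPM in each library, with exact 95% Poisson intervals. Classes were compared within libraries by the exact two-sided sign-flip permutation test of log2(CPM + 10), and PBMC with graft libraries by the exact permutation test. In a count of members called, a member had the same direction in every library, or did not overlap between blood and graft. The design had foreseen p-values adjusted over the members alone. These are not given, and edgeR 4.0.16 (quasi-likelihood, TMM, library as block between classes and no block between blood and graft, Benjamini-Hochberg over all genes tested, adjusted p under 0.05) was added after seeing the data, with the subtraction of neutrophil RNA scaled by Retnlg and the gate with Retnlg, Cxcr2 and Mmp9. A split of T cells and a gate gene are not reported here. Doublets were addressed only by leaving out cells of more than 1 gate. Each condition is 1 library, so p-values measure only the spread between these libraries. Tests were checked on simulated counts, where the rule of 1 direction in every library called more unchanged genes than edgeR did, most of all in the comparisons with 3 libraries. The members, gene lists and gates were chosen with earlier results of these data known. Named genes are the members, the other S100 genes by their UMIs, the partners, gate and marker genes and, for each member, the 3 genes with the highest correlation. Python 3.11.15 and R 4.3.3 were used.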

Additional observations from a re-analysis of the deposited data

Results flagged for a closer look

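In T cells with cycle genes minus the others, kidney PC stood apart from the other 7 libraries for S100a9 (0.25 on the log2 scale, against -0.51 for the nearest library). The value rests on 4 UMIs in T cells with cycle genes and 7 in the others. Of 24 sets of library differences, 1 was apart in this way, where chance alone gives about 1 in 20.

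The difference between T cells with and without cycle genes itself differed between PBMC and graft libraries for 4 members (exact permutation p = 0.036 each, the smallest for 3 against 5, of 12 tests of that size). The other 12 tests were of 3 against 3 libraries, where the smallest p is 0.1, and could not pass. For the 4 members PBMC minus graft was -0.44 for S100a8, -0.67 for S100a9, 0.46 for S100a10 and -0.31 for S100a11 on the log2 scale. Of 5412 genes, this difference was higher in all PBMC than in all graft libraries for 9.15%, and lower for 4.27%.

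S100g, a calcium-binding protein of kidney tubules that is no member, had 39 UMIs in kidney TIL and 23 in kidney PC, and 0 or 1 in each other library.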

How the results depend on the processing

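Replicate numbers pair nothing, since every library has the number 1. With PBMC and TIL libraries paired by organ as a replicate block, added after seeing the data, 5 members had 1 direction in neutrophils (2 organs), 5 in monocytes or macrophages and 6 in T cells (3 organs each), and the smallest exact permutation p was 0.5 for 2 organs and 0.25 for 3. The share of all genes with 1 direction was not computed, so these counts are no result about the members. The heart and liver pairs use the TIL libraries that went against their organ and may join different organs. Without them only the kidney pair is left, and no pair for neutrophils. Of 172 recomputed counts of members called and T cell levels relative to Retnlg, 155 were within 1.5 times or 1 SD. Outside edgeR the share of all genes was not recomputed for these counts, so a higher count is no support. The count in neutrophils minus T cells (5) was 2 with no UMI minimum, which lost S100a8, S100a9 and S100a11, and that against monocytes or macrophages (4) was 0. In monocytes or macrophages minus T cells (1) it was 2 at 1000 UMIs, 2 with stricter gates, 2 without both TIL libraries of heart and liver, 4 in edgeR and 0 with cells of more than 1 gate, which also gave 3 in B minus T cells (5) and turned S100a8 and S100a9 there to -0.25 and -0.16. For cycle genes (1) it was 2 at 1000 UMIs, 2 without shared barcodes, 3 in edgeR and 0 after subtraction of neutrophil RNA. For C1q (4) it was 2 with no UMI minimum, which lost S100a6 and S100a10. Subtraction gave 0 for monocytes or macrophages (4) and 2 for T cells (5) in blood against graft, of which S100a10 was 1 of the 5 and the other, S100a8, was lower in blood through levels set to 0. In edgeR the count for T cells was 0. Subtraction also turned S100a10 in neutrophils minus monocytes or macrophages to 0.30, S100a8 and S100a9 in B minus T cells to -2.14 and -1.15, S100a9 and S100a11 in blood against graft monocytes or macrophages to -1.51 and -0.27, and S100a8 and S100a9 in T cells to -4.36 and -1.44. The S100a8 and S100a9 values of B and T cells, and S100a9 of monocytes or macrophages, were decided by levels set to 0 (in B minus T cells by liver PC alone) and are no measured directions. The cause of the other changes was not tested.

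Leaving out 1 library gave 5 to 5 members in neutrophils minus T cells, 1 to 1 in monocytes or macrophages minus T cells, 4 to 4 in neutrophils minus monocytes or macrophages, 5 to 6 in B minus T cells, 1 to 3 for cycle genes (3 without kidney PC), 4 to 6 for C1q (6 without the labelled liver TIL), and 4 to 5, 4 to 5 and 5 to 6 in blood against graft neutrophils, monocytes or macrophages and T cells. In B minus T cells and for C1q this left 2 libraries, where 1 direction is easily reached. The share of all genes was not recomputed for any of these counts, so a higher count is no support. Kidney PBMC and kidney PC limit depth, with 1143 and 795 cells.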
